A study of Mus musculus with 3 samples.

Results

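The interferon response was examined in endothelial cells of the adult mouse kidney cortex through 47 genes, chosen by function as interferon receptors, signaling factors, sensors and interferon-induced effectors. Of these 47 genes, 43 had an array probeset assigned to them alone, among 19938 genes in all. Each gene was taken at its probeset with the highest mean log2 signal. Gbp2, Igtp and Isg15 lay only on probesets shared with another gene, and Ifi44 had no assigned probeset, so these 4 are not given values here. There was 1 group of 3 samples, called replicates 1, 2 and 3, each sorted for GFP from a single kidney (adult mice, Tg(TIE2GFP)287Sato, mixed background primarily CD-1, sex unknown, no treatment named). GFP in these mice is driven by the promoter of Tek (Tie2), which some blood cells also use. The medulla had been cut away, glomeruli were held back on a 40 µm mesh, and cells were dissociated with collagenase and trypsin before sorting. With no second group, the questions were which interferon genes had a signal above 100, the raw level the study used as its filter, and how far the 3 samples differed.

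Interferons are cytokines of antiviral defense. Type I interferons bind the receptor pair IFNAR1 and IFNAR2, and interferon gamma binds IFNGR1 and IFNGR2. Receptor-bound Janus kinases then phosphorylate STAT proteins, which enter the nucleus. STAT complexes with IRF9 bind the interferon-stimulated response element (ISRE), STAT dimers bind the gamma-activated site (GAS), and the genes so induced block viral entry, translation and replication. Endothelial cells respond to both kinds of interferon.

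The deposited values were log2 signals of 35557 probesets. The 8 endothelial markers examined, among them Pecam1, Cdh5, Kdr and Tek, were all above 100, against 22.9% of all genes. Of the 8, 4 were above without replicate 1, 6 without replicate 2 and 5 without replicate 3. Below 100 were 9 of 10 macrophage and dendritic cell markers, 8 of 9 lymphocyte markers and 6 of 6 neutrophil markers. The share below over all genes was 65.0%. In each of these 3 lists 0 genes were above by limma, and 0 also at an unadjusted p under 0.05. Proximal tubule genes were also present, with 7 of 8 above (5 without replicate 1 or replicate 3). The paper reports minor contamination in its cortical endothelial samples, with a mainly proximal tubule profile. The part of tubule cells in the interferon gene signals given here was not tested. Pairs of samples had a Pearson's r of 0.941 to 0.95 over the probesets (not independent replicates), with medians of 5.66 to 5.7 on the log2 scale. The number of arrays, 3, limits the precision. "Above" and "below" refer here to limma's moderated test of the mean, one-sided, against a signal of 100 (6.64 on the log2 scale), called at an adjusted p under 0.05 (Benjamini-Hochberg, all 35557 probesets). For 51.2% of all genes and 11 of the 43 interferon genes (25.6%) the samples were identical to the last decimal, so the SD was 0 and p became small even near the limit. These calls were also made with such probesets given the spread of the other probesets, written here as "with the spread of others". Where 3 numbers follow a gene, they are its log2 signals in replicates 1, 2 and 3, in that order.

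Of the 43 interferon genes, 20 were above a signal of 100 (46.5%), 6 were below (14%) and 17 were neither. Over all 19938 genes 22.9% were above and 65.0% below. The genes above included all 4 receptors and all 4 membrane restriction factors, while 0 of 7 interferon regulatory factors were above by limma. Of the 20 calls, 5 rested on 3 equal values. With the spread of others, 25 interferon genes were above, against 20.7% of all genes. This fit gained 7 genes with unequal values (Stat2, Irf2, Irf7, Irf9, Ifit2, Rsad2 and Xaf1) and lost 2 (Oasl1 and Isg20). Since limma shares variance between probesets, p changed for genes with unequal values too. With 1 sample left out and 2 remaining, 8 were above without replicate 1, 12 without replicate 2 and 15 without replicate 3, against 16.7%, 17.1% and 16.8% of all genes. Of the 20 calls, 8, 11 and 11 were kept in these fits. Where the 2 remaining values were equal, the SD was again 0 and p became small. Without replicate 3 this held for Ifnar2, Irf7, Eif2ak2 and Parp14, among others. Without replicate 1, the 8 of 43 interferon genes above were a share close to that of all genes. At a limit of 50 there were 33 of 43 above, against 51.3% of all genes, and at a limit of 200 there were 9, against 9.37%. A total of 28 interferon genes had 100 or more in every sample, against 28.0% of all genes.

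**Figure D1:**
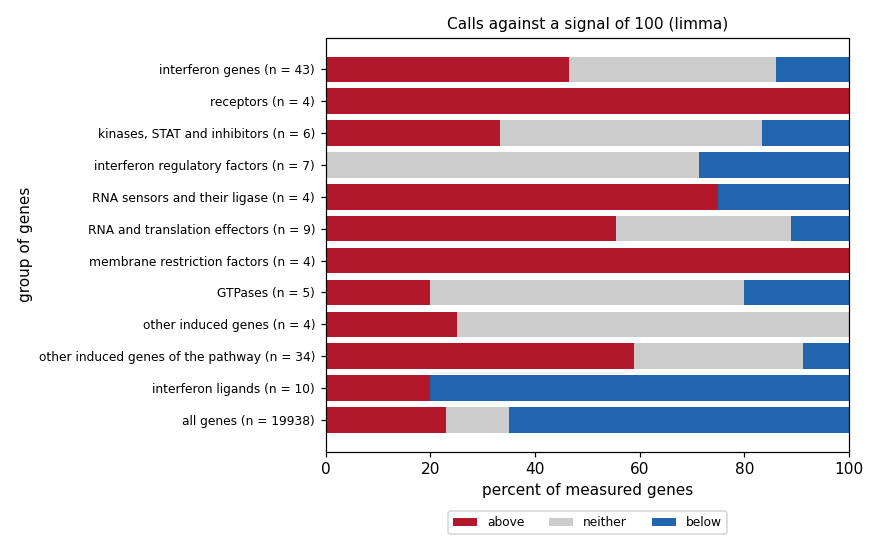
Percent of measured genes called above (red), neither (gray) or below (blue) a signal of 100 by limma, for the 43 interferon genes, their 8 roles, 2 lists of other pathway genes, and all 19938 genes. All receptors and membrane restriction factors were above, and 0 of 7 interferon regulatory factors were at an adjusted p under 0.05.

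The upstream sequences of some induced genes are shown first. For 40 of the 47 genes RefSeq (build GRCm38.p6) gave a promoter window of 250 bases before to 50 bases after a start site. The other 7 were Usp18, Dhx58, Oas2, Mx1, Mx2, Iigp1 and Parp14. The ISRE core, searched as GAAA, any 2 bases and GAAA on both strands, was present in 18 of these 40 genes (45%), against 3.99% of the 27025 genes with a window (3.44% of 32851 windows). The GAS, searched as TTCNNNGAA, which reads the same on both strands, was in 12 of 40 (30.0%), against 9.55% of all genes (8.3% of windows). A match is a description of letters and not a proven site.
The last 160 bases before the start site are given 5′ to 3′ on the gene's strand, with ISRE matches in capitals (TTTC, 2 bases and TTTC where the match is on the other strand). Ifit1 and Ifit3 are shown as genes above 100 with an ISRE upstream of the start, and Gbp3, Irgm1 and Rsad2 as genes with a large difference between samples (these 3 were chosen after their values were seen).
Ifit1, chr19:34640729-34640888, plus strand: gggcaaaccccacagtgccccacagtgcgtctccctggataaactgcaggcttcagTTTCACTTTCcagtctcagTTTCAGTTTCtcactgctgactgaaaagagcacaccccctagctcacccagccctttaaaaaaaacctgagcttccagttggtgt
Ifit3, chr19:34583369-34583528, plus strand: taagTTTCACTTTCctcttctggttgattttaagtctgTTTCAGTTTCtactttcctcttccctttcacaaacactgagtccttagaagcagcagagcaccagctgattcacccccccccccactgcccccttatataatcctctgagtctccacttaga
Gbp3, chr3:142559884-142560043, plus strand: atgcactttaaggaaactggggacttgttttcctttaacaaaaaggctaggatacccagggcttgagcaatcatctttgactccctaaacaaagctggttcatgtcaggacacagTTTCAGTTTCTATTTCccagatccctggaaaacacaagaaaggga
Irgm1, chr11:48871421-48871580, minus strand: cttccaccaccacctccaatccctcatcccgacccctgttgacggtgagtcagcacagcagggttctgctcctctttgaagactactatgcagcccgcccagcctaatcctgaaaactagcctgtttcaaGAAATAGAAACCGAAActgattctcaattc
Rsad2, chr12:26456453-26456612, minus strand: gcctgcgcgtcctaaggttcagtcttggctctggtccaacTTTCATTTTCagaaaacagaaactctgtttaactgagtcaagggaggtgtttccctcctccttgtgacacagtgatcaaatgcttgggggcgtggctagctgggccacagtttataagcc
In Ifit1 and Ifit3 the pairs of matches stood apart, starting at positions -104 and -85 in Ifit1 and at -156 and -122 in Ifit3. In Gbp3 and Irgm1 the matches overlapped, starting at -45 and -39 in Gbp3 and at -30 and -24 in Irgm1, and Rsad2 had 1 match at -120. Ddx58 and Ifih1 also had an ISRE match, which lay after the start site (positions 3 and 33). Neither motif was found in the windows of 15 genes, among them Ifngr1, Jak1, Jak2 and Trim25.

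All 4 receptor genes were above a signal of 100, against 22.9% of all genes. Ifnar1, a chain of the type I receptor, had log2 signals 8.51, 8.38 and 8.38 (mean 8.42 ± 0.08, SD, n = 3; adjusted p = 0.00102 from limma). Ifnar2, its partner chain, had 10.22, 10.22 and 9.24 (adjusted p = 0.0156 from limma). Replicates 1 and 2 held the same value for Ifnar2, and replicate 3 lay 0.98 lower. Ifngr1, the ligand-binding chain of the interferon gamma receptor, had 8.54, 8.52 and 9.15 (adjusted p = 0.0149 from limma) and was the only measured member whose signal was highest in replicate 3 alone. Ifngr2, its second chain, had 8.05, 7.66 and 7.97 (adjusted p = 0.0142 from limma). Each call ended with some sample left out: Ifnar1 without replicate 3 (adjusted p = 0.0627), Ifnar2 and Ifngr1 without replicate 1 (0.147 and 0.132) or 2 (0.146 and 0.127), and Ifngr2 without replicate 1 (0.125) or 3 (0.211).

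Among kinases, STAT and inhibitors, 2 of 6 genes were above, against 22.9% of all genes, 1 was below, against 65.0%, and 3 were neither. Jak1, the kinase shared by both receptor types, gave log2 signals 10.00, 9.80 and 9.14 and was above (9.64 ± 0.45; adjusted p = 0.0117 from limma). Jak2, the kinase bound to IFNGR2, had 7.45 in each sample and was above (adjusted p = 1.71e-06, and 0.0199 with the spread of others). Tyk2, the kinase bound to IFNAR1, lay around the limit with 6.78, 5.97 and 6.51, and was neither (adjusted p = 0.299 for below). The call for Jak1 ended without replicate 1, 2 or 3 (adjusted p = 0.109, 0.135 and 0.0537).

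Stat2, the STAT of type I signaling, gave log2 signals 8.73, 8.26 and 7.25. The signal exceeded 100 in every sample, but the spread left the mean of 8.08 ± 0.76 (SD, n = 3) short of the threshold (adjusted p = 0.127 from limma). Usp18, which encodes a protease that removes ISG15 and also blocks signaling at IFNAR2, had 7.38, 7.07 and 6.35 and was neither (adjusted p = 0.755). Both genes were lowest in replicate 3. Socs1, an inhibitor of Janus kinases, was below at 6.29 throughout (adjusted p = 8.34e-08, and 0.0307 with the spread of others).

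Of the 7 interferon regulatory factors 0 were above 100 by limma, against 22.9% of all genes. Below were 2, against 65.0%, and 5 were neither. At an unadjusted p under 0.05, 3 were above, and with the spread of others 3 were called above, Irf2, Irf7 and Irf9. Irf1, an interferon gamma-induced activator, gave log2 signals 7.80, 7.89 and 6.39 (7.36 ± 0.84, SD, n = 3; adjusted p = 0.464 from limma). A second probeset of Irf1 gave 6.98, 7.49 and 6.39, with replicate 3 again lowest. Irf2, a related factor that can repress IRF1 targets, had 8.50, 8.66 and 7.30 (adjusted p = 0.114). In both genes replicates 1 and 2 lay close together and replicate 3 was lower by 1.2 to 1.5 on the log2 scale.

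Irf7, which drives interferon alpha genes, gave log2 signals 7.90, 7.90 and 7.28 (adjusted p = 0.0559 from limma). Irf9, the DNA-binding partner of the STAT complex, had 7.46, 7.43 and 6.93 (adjusted p = 0.106). Irf7 and Irf9 exceeded 100 in every sample and were lowest in replicate 3. Irf3, the constitutive factor downstream of RNA and DNA sensors, differed from them, with 7.17, 6.44 and 7.17, so that replicate 2 was lowest (adjusted p = 0.61). Irf5, a factor of myeloid and B cells, was below at 5.63 throughout (adjusted p = 1.72e-09). Irf8, a factor of macrophages and dendritic cells, was below at 6.45 in each (adjusted p = 4.56e-07), a call that ended with the spread of others (adjusted p = 0.127).

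Among the RNA sensors and their ligase, 3 of 4 genes were above 100, against 22.9% of all genes. Ddx58, the gene of the RNA sensor RIG-I, gave log2 signals 8.25, 8.53 and 8.25 (adjusted p = 0.00462 from limma). Ifih1, the gene of the sensor MDA5, had 8.35, 8.25 and 8.26 (adjusted p = 0.000638). Trim25, a ubiquitin ligase that activates RIG-I, had 8.53 in each sample (adjusted p = 1.68e-06, and 0.00197 with the spread of others). These 3 genes differed by at most 0.28 between samples. Dhx58, the gene of LGP2, a regulator of both sensors, was below at 5.43 throughout (adjusted p = 8.86e-10). The call for Ddx58 ended without replicate 1 or 3 (adjusted p = 0.0736 and 0.117) and that for Ifih1 without replicate 3 (0.0532).

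Of 9 effectors that act on RNA or translation, 5 were above 100, against 22.9% of all genes. Below was 1, against 65.0%, and 3 were neither. The 3 IFIT genes encode proteins that bind foreign RNA and restrain translation. Ifit1 was above at 7.42 in every sample (adjusted p = 1.73e-06, and 0.022 with the spread of others). Ifit3 had 10.12, 10.54 and 9.63 in replicates 1, 2 and 3 and was above (10.09 ± 0.46, SD, n = 3; adjusted p = 0.00912 from limma). Ifit2 had 9.07, 9.67 and 8.15, over 100 in every sample, and narrowly missed the threshold (adjusted p = 0.0535). Ifit2 and Ifit3 were both highest in replicate 2 and lowest in replicate 3. The call for Ifit3 ended without replicate 1, 2 or 3 (adjusted p = 0.123, 0.0694 and 0.0913).

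The OAS proteins sense double-stranded RNA, and the OASL proteins are their relatives. Oasl2 gave log2 signals 7.87, 7.81 and 7.32 and was above (adjusted p = 0.0435 from limma), and Oasl1 was above at 6.83 in each sample (adjusted p = 7.5e-06). Oas2 lay around the limit with 6.55, 7.06 and 6.18 (adjusted p = 0.615 for below), and Oas3 was below at 5.37 in each (adjusted p = 7.32e-10). Isg20, an exonuclease of single-stranded RNA, was above at 6.99 in each sample (adjusted p = 3.11e-06). The calls for Oasl1 and Isg20 rested on equal values and ended with the spread of others (adjusted p = 0.394 and 0.134). Eif2ak2, the gene of the kinase PKR that halts translation, had 7.06, 7.06 and 6.64 and was neither (adjusted p = 0.311). The call for Oasl2 ended without replicate 1 or 2 (adjusted p = 0.248 and 0.268).

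All 4 membrane restriction factors were above 100, against 22.9% of all genes. The IFITM proteins block the fusion of viruses with endosomal membranes. Ifitm3 gave log2 signals 12.94, 13.04 and 12.75 (12.91 ± 0.15, SD, n = 3; adjusted p = 0.000327 from limma), and its call held with any 1 sample left out (adjusted p = 0.0141 to 0.0224). It was the only gene with unequal values among the 20 for which this was so. Ifitm2 had 10.99, 11.43 and 10.57 (adjusted p = 0.00509), and its other probesets gave 10.76, 11.04 and 10.22, and 10.68, 10.81 and 10.38. All 3 probesets of Ifitm2 kept the same order of the samples, with replicate 2 highest and replicate 3 lowest. Ifitm1 had 7.93, 8.60 and 8.20 (adjusted p = 0.0223), and a second probeset gave 6.92, 7.78 and 7.54 and was not above (adjusted p = 0.153). In both probesets of Ifitm1 replicate 1 was lowest. Bst2, the gene of tetherin, which holds budding viruses at the cell surface, had 9.60, 8.90 and 9.23 (adjusted p = 0.00929). The calls for Ifitm1 and Bst2 ended with any sample left out (adjusted p = 0.085 to 0.258 and 0.0603 to 0.18), and that for Ifitm2 ended without replicate 1 or 3 (0.0911 and 0.0789).

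Among the interferon-induced GTPases, 1 of 5 measured genes was above 100, against 22.9% of all genes. Below was 1, against 65.0%, and 3 were neither. These genes had the widest spread between samples of all roles, with a median SD of 1.14 against 0.34 over all 43 genes. Iigp1, an immunity-related GTPase that acts on the vacuoles of intracellular parasites, gave log2 signals 11.27, 11.39 and 9.27 and was above (10.64 ± 1.19, SD, n = 3; adjusted p = 0.0437 from limma). Irgm1, a regulatory member of the same family, had 8.35 and 8.66 in replicates 1 and 2 and lay under the limit in replicate 3, at 6.38 (adjusted p = 0.409). Gbp3, a guanylate-binding protein gene, had 8.53, 8.81 and 6.72 (adjusted p = 0.277). For these 3 genes replicates 1 and 2 differed by at most 0.3 on the log2 scale, while both exceeded replicate 3 by 1.82 to 2.28. The call for Iigp1 ended without replicate 1 or 2 (adjusted p = 0.267 and 0.254).

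The Mx genes encode dynamin-like GTPases that trap viral nucleocapsids. Mx1 was below, at 4.02 on the log2 scale in every sample (adjusted p = 3.54e-10 from limma). Mx2 lay around the limit, with log2 signals 7.15, 6.63 and 6.59 (adjusted p = 0.862).

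Of the 4 other induced genes, Parp14 was above, against 22.9% of all genes, and 3 were neither. Rsad2, the gene of the radical SAM enzyme viperin, gave log2 signals 10.10, 10.08 and 8.23. It was over 100 in every sample, but its mean of 9.47 ± 1.07 (SD, n = 3) missed the threshold (adjusted p = 0.0694 from limma). Xaf1, a gene tied to apoptosis, had 8.55, 8.76 and 7.38 (adjusted p = 0.104). Parp14, an ADP-ribosyltransferase gene, had 9.10, 9.10 and 8.59 (adjusted p = 0.00842), and Ifi35, which encodes a leucine zipper protein of the cytoplasm, had 6.76, 6.73 and 5.92 (adjusted p = 0.401 for below). All 4 genes were lowest in replicate 3. The call for Parp14 ended without replicate 1 or 2 (adjusted p = 0.106 and 0.105).

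**Figure D2:**
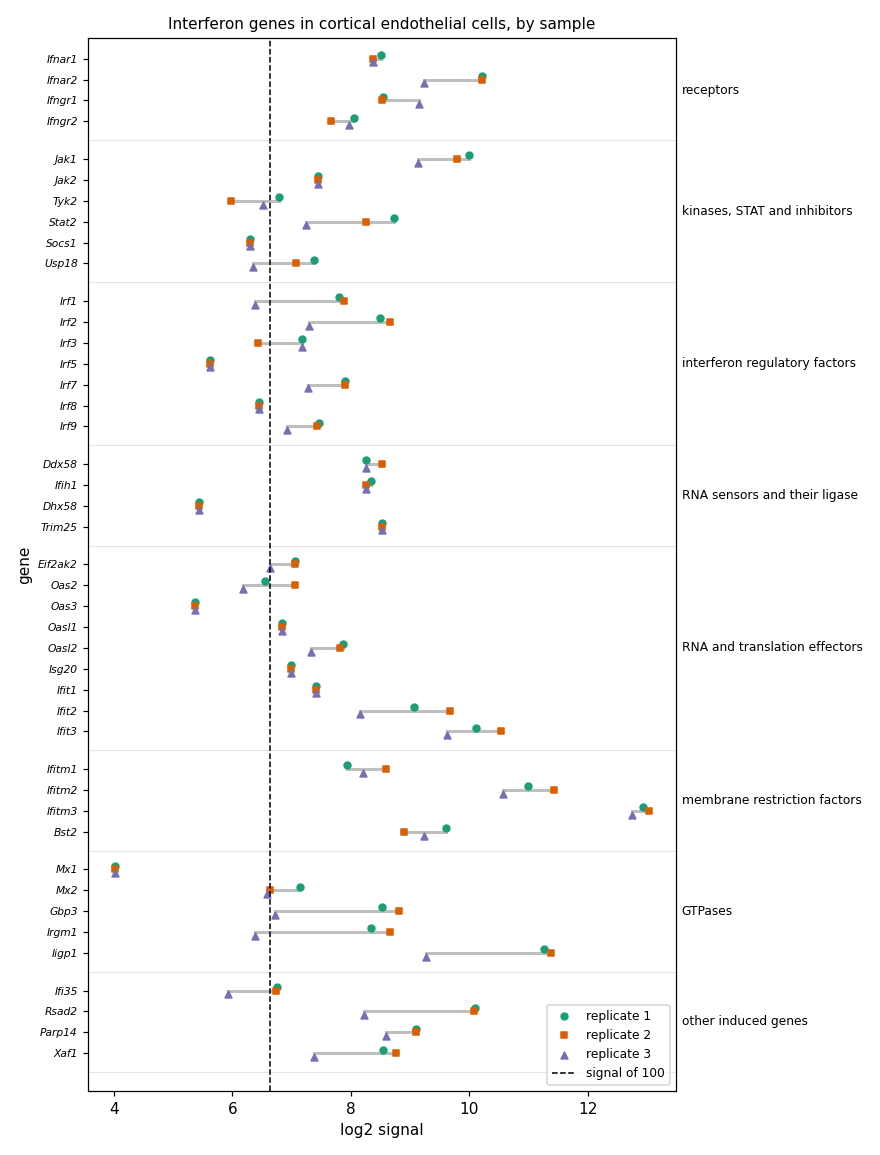
Log2 signal (horizontal axis) of each of the 43 interferon genes in replicates 1 (circles), 2 (squares) and 3 (triangles), grouped by role, with gray bars for the range and a dashed line at a signal of 100. Gbp3, Irgm1, Iigp1 and Rsad2 show triangles far to the left of close pairs of circles and squares, while the 11 genes with 3 equal values show none of this spread.

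Replicate 3 was thus the lowest sample for most interferon genes that varied. Of the 32 genes with unequal values, 23 were lowest in replicate 3 alone (71.9%), 6 in replicate 2 alone and 1 in replicate 1 alone. Over all 9735 genes with unequal values, replicate 3 alone was lowest in 25.9%, replicate 2 alone in 21.1% and replicate 1 alone in 19.8%. Among genes with a mean of 100 or more, it was alone lowest for 21 of 29 unequal interferon genes (72.4%), against 34.3% of 4443 genes. At that level replicate 2 alone was lowest for 5 interferon genes, against 26.3% of genes, and replicate 1 alone for 1, against 17.4%. These are counts over genes of 3 samples, with 1 sample at each place, and no test was made of them. In sorted cell samples, fewer cells of a type and less RNA per cell cannot be told apart.

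The difference ran between replicate 3 and both other samples. A signal at least 1 higher on the log2 scale in replicate 1 than in replicate 3 was found for 9 of 43 interferon genes, against 1.59% of all genes, and all 9 had a mean of 100 or more, where the share among all genes was 3.7%. In replicate 2 over replicate 3 there were 9 too, against 1.45% of all genes and 3.38% of those with a mean of 100 or more. Both held for 8 genes: Stat2, Irf1, Irf2, Gbp3, Irgm1, Iigp1, Rsad2 and Xaf1. Usp18 passed only in replicate 1 over replicate 3 (1.03) and Ifit2 only in replicate 2 over replicate 3 (1.52). Between replicates 1 and 2, 0 of 43 differed by this much in either direction, against 0.843% of all genes for replicate 1 over replicate 2. Among genes with a mean of 100 or more, 1.86% had replicate 1 over replicate 2 and 1.03% replicate 2 over replicate 1 by this much. Replicate 3 lay at least 1 above replicate 1 or replicate 2 in 0 of 43 interferon genes, against 2.17% and 2.86% of genes with a mean of 100 or more.

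In the median over the 43 genes, replicate 1 exceeded replicate 3 by 0.37 and replicate 2 exceeded replicate 3 by 0.41 on the log2 scale, while replicates 1 and 2 differed by 0.0. Over all genes each of these medians was 0.0, a value fixed by ties, since 51.2% of all genes held 3 equal values (25.6% of the interferon genes). Among the 34 interferon genes with a mean of 100 or more, both differences from replicate 3 had a median of 0.5. In the 6127 genes of that level both medians were 0.0. The 95th percentile there was 0.84 for replicate 1 minus 3 and 0.83 for replicate 2 minus 3. By role, the median of replicate 1 minus 3 was 1.82 for the GTPases, 1.0 for the other induced genes, 0.57 for kinases, STAT and inhibitors, 0.53 for the regulatory factors, 0.37 for RNA and translation effectors, 0.28 for membrane restriction factors, 0.1 for receptors and 0.0 for RNA sensors and their ligase. The median was near 0 for receptors and sensors, although Ifnar2 was 0.98 lower in replicate 3 and Ifngr1 was higher there. The contrast between roles was not tested.

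**Figure D3:**
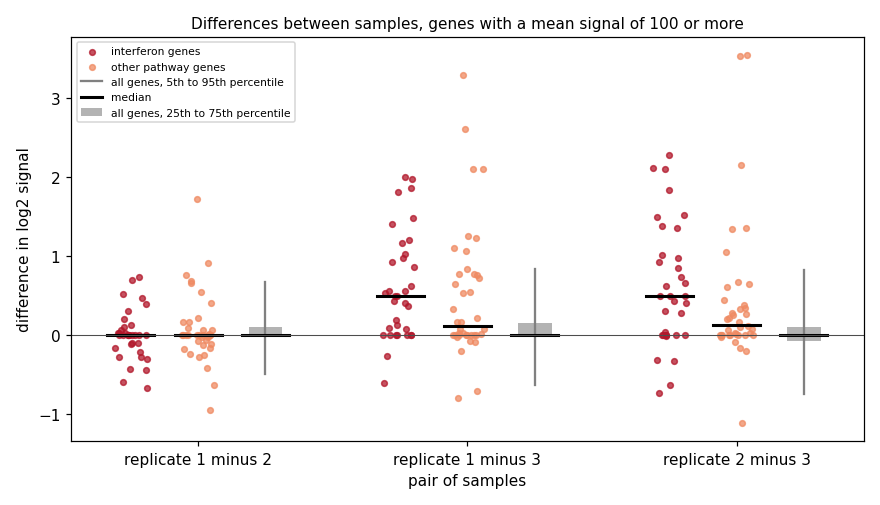
Difference in log2 signal between each pair of samples for genes averaging at least 100: 34 interferon genes (dark red points), 38 other pathway genes (orange points), and all 6127 genes (gray, 5th to 95th and 25th to 75th percentiles), with black lines at the medians. The largest differences from replicate 3 among these interferon genes are 2.0 for replicate 1 and 2.28 for replicate 2. Replicate 1 minus 2 stays between -0.67 and 0.73 in them.

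Other cell types were examined for the same pattern. The summed linear signal of the 43 interferon genes was 25414, 27240 and 17698 in replicates 1, 2 and 3. That of the 10 macrophage and dendritic cell markers was 387, 399 and 414, with Csf1r at a log2 signal of 4.92 and Adgre1 at 4.36 in each sample, and this sum was not lower in replicate 3. The 9 lymphocyte markers summed to 259, 265 and 363, where Nkg7, a gene of natural killer and cytotoxic T cells, had 4.84, 5.03 and 7.04 (named after its values were seen). The 6 neutrophil markers summed to 165, 142 and 149. Of 5 plasmacytoid dendritic cell markers, which summed to 1627, 1313 and 1364, 3 were below 100, and those above were Tcf4 and Bst2, itself among the 43 genes (1 of them with any sample left out). The 8 endothelial markers summed to 10087, 10584 and 8267. Replicate 3 alone was lowest for 5 of the 8 (62.5%) and replicate 2 alone for 2. Among all unequal genes with a mean of 100 or more these shares were 34.3% and 26.3%. Their median was 0.29 for replicate 1 minus 3 and 0.12 for replicate 2 minus 3. Kdr, the VEGF receptor, had 9.72, 9.70 and 8.79, and Emcn had 11.56, 11.96 and 11.17, whereas Pecam1 and Cdh5 differed by at most 0.04. The 8 proximal tubule genes summed to 13985, 12299 and 12267, and the 10 genes of the early response to dissociation to 1596, 1467 and 1328. Most macrophage, lymphocyte and neutrophil markers lay below 100, and 6 of the 10 macrophage and dendritic cell markers held 3 equal values. Such sums can hardly show a change in the share of these cells. The part of any of these cell types, or of dissociation, in the lower interferon genes of replicate 3 was not tested.

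A further 64 measured genes of the pathway, of 78 listed by function, were compared in the same way. Of these, 28 were above 100 and 20 were below, against 22.9% and 65.0% of all genes. The count above was 17 with replicate 1 left out, 16 with replicate 2 left out and 22 with replicate 3 left out, of which 17, 16 and 18 were among the 28. Among 34 other induced genes 20 were above, 3 below and 11 neither, against 22.9% above and 65.0% below over all genes. Of these 20 calls, 11 were kept without replicate 1, 10 without replicate 2 and 11 without replicate 3. Ifi27, a mitochondrial interferon-induced gene, gave log2 signals 9.30, 9.72 and 9.38 (adjusted p = 0.00341 from limma). Ifi203, a nuclear DNA-binding protein gene, had 10.68, 10.94 and 10.66 (adjusted p = 0.000795). The call for Ifi27 ended without replicate 1 or 3 (adjusted p = 0.0552 and 0.111) and that for Ifi203 without replicate 3 (0.0539). Adar, the RNA-editing deaminase, was above at 7.29 in each sample, as were Ifi27l2a, Ifi30 and Lgals3bp with unequal values. The call for Ifi30 ended with the spread of others (adjusted p = 0.0786) and without replicate 1 or 2 (0.161 and 0.16), and that for Ifi27l2a ended without replicate 2 or 3 (0.107 and 0.168). Cmpk2, Oas1b and Pml were below, at means of 6.12, 6.13 and 5.77.

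In the same 3 samples, many of the other induced genes were also lowest in replicate 3, among them further guanylate-binding protein genes. Of the 31 with unequal values, 24 were lowest in replicate 3 alone (77.4%), 1 in replicate 2 alone and 2 in replicate 1 alone. Over all genes with unequal values these shares were 25.9%, 21.1% and 19.8%. Over all 64 other pathway genes the median was only 0.01 for replicate 1 minus 3 and 0.02 for replicate 2 minus 3. Among those with a mean of 100 or more it was 0.12 and 0.13. Gbp4 gave log2 signals 11.26, 11.50 and 7.96. Gbp5 had 8.36, 9.31 and 5.75, and Gbp7 had 10.33, 10.39 and 8.23. In these 3 genes replicate 3 lay 2.1 to 3.55 below each of the others, while replicates 1 and 2 differed by at most 0.95. Herc6, the mouse ligase for ISG15, had 8.87, 9.15 and 7.81, and Samhd1, a dNTP hydrolase gene, had 10.23, 10.36 and 9.0. Rnf213, a large ubiquitin ligase gene, ran otherwise, with 9.05, 7.33 and 6.95, so that replicate 1 stood apart. Lap3, an aminopeptidase gene, likewise had 9.41, 8.50 and 8.30. Gbp4, Gbp5, Gbp7, Herc6, Samhd1 and Rnf213 were named after their values were seen, as was Lap3.

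**Figure D4:**
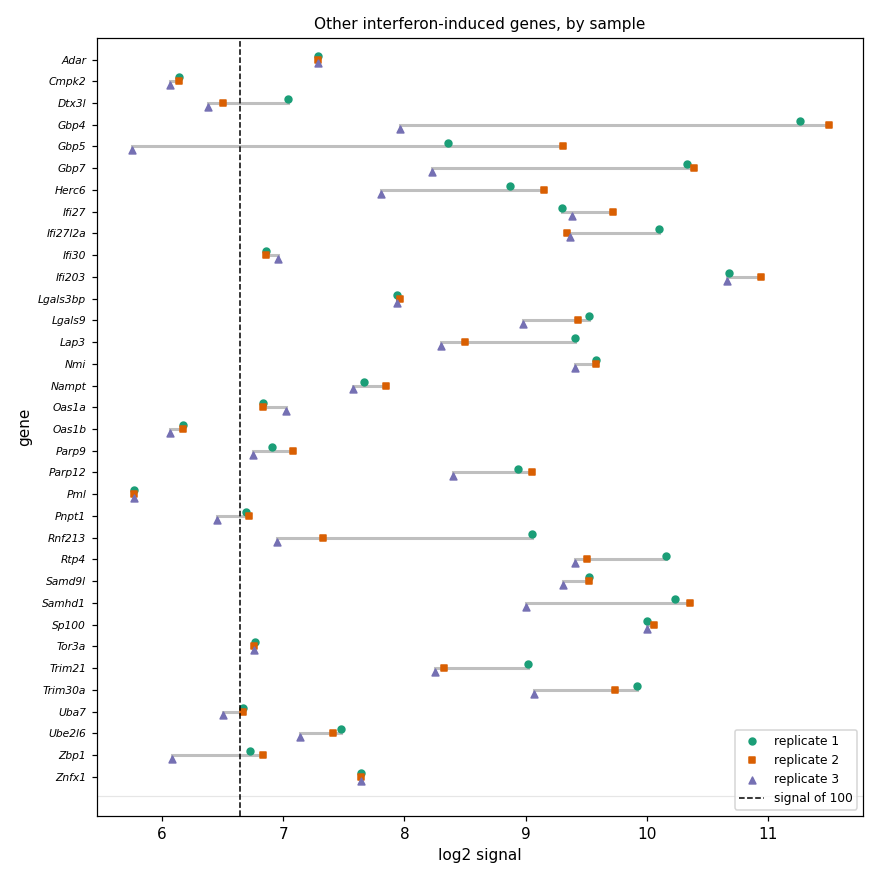
Log2 signal (horizontal axis) of 34 other interferon-induced genes in replicates 1 (circles), 2 (squares) and 3 (triangles), with gray bars for the range and a dashed line at a signal of 100. Gbp4, Gbp5 and Gbp7 have triangles far to the left, and Adar, Pml and Znfx1 have 3 equal values.

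Of 10 measured interferon ligand genes 8 were below 100, against 65.0% of all genes. Among the 8 were Ifnb1 at a log2 signal of 4.87, Ifng at 4.72 and Ifna4 at 3.25 in each sample. Ifna5 (6.99 ± 0.01, SD, n = 3; adjusted p = 0.000517 from limma) and Ifnl2 (6.86 ± 0.04; adjusted p = 0.0203) were above, both close to the limit. The call for Ifnl2 ended with the spread of others (adjusted p = 0.106) and with any sample left out (adjusted p = 0.057 to 0.176), and that for Ifna5 held (0.000646 to 0.048). The ligand genes summed to 560, 566 and 560 in replicates 1, 2 and 3. A low signal in the sorted cells does not bear on ligand made by other cells.

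Of 9 measured receptors, STATs and factors outside the 47 genes, 5 were above 100, against 22.9% of all genes. These 5 were Il10rb, Stat3, Ptpn11, Pias1 and Prdm1. Below were 3 (Ifnlr1, Irf4 and Socs3), against 65.0%, and Ptpn6 was neither. The call for Prdm1, at 6.68 in every sample, ended with the spread of others. Il10rb, the shared chain of the interferon lambda receptor, gave log2 signals 9.87, 9.70 and 9.09 and was above (adjusted p = 0.0101 from limma), a call that ended without replicate 1 or 2 (adjusted p = 0.102 and 0.125). Its partner Ifnlr1 was below at 6.02, 5.94 and 6.02 (adjusted p = 0.000728). Socs3 was below at 6.12 throughout, and Ptpn11 and Pias1, both of which restrain STAT signaling, were above at 7.75 and 7.77 in each.

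Promoter letters were set beside the sample values for the 36 genes with both. The 15 with an ISRE match had a median of replicate 1 minus 3 of 0.41 and of replicate 2 minus 3 of 0.43, and 5 of them passed a difference of 1 in each. The 21 without one had medians of 0.13 and 0.0, and 2 and 3 of them passed. Of the 15 with a match 7 were above 100, and of the 21 without one 11 were. The difference between these sets was not tested.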

How the data were processed

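Expression was measured on Affymetrix Mouse Gene 1.0 ST arrays in 3 samples of sorted adult cortical endothelial cells, with RNA amplified in 1 round (NuGEN WT-Ovation Pico). The authors deposited log2 signals per probeset, already summarised and scaled across arrays. RMA in GeneSpring GX is given in the paper's text, and the submitters' processing notes name Affymetrix Expression Console. For Expression Console no version is stated in the sources used here, nor which arrays were scaled as 1 set. The paper calls its samples independent biological samples. Other sample types of the study were not analysed here.

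Each of the 35557 probesets was modelled in R 4.3.3 (limma 3.58.1) as the log2 value minus log2 of 100 (intercept only, variance trend), tested one-sided in each direction with Benjamini-Hochberg adjustment, and called at an adjusted p under 0.05. Residual degrees of freedom were 2 and prior degrees of freedom 0.297. The code was tested on simulated data. Probesets assigned to 1 gene numbered 21789, to several genes 1621 and to none 12147, and only the first kind were named. Levels of different genes were not compared, since probesets differ in brightness. Tables were handled in Python 3.11.15 with pandas 2.3.3 and numpy 2.4.6.

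All measured interferon genes are named. From each other pathway list the first 6 genes above and the first 3 below, in written order, could be named, as could all genes behind a count of at most 5. Not all are reported here. The members, lists and tests were chosen with earlier results of these data known. Alternatives were limits of 50 and 200, no test, quantile normalization, columns shifted to 1 median, no variance trend, a filter on dim probesets, probesets of 1 gene only, the probeset with the lowest mean, the spread of other probesets for equal values, and each sample left out. Promoter windows were read from RefSeq (GRCm38.p6) and searched on both strands.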

Additional observations from a re-analysis of the deposited data

How the results depend on the processing

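Of the 43 interferon genes, the count of 20 above 100 became 9 at a limit of 200 and 33 at a limit of 50, and 8 to 15 with 1 sample left out. They were 25 with the spread of other probesets for equal values, 25 after quantile normalization, 24 with columns shifted to 1 median, 23 with the filter on dim probesets, 20 with no variance trend or with probesets of 1 gene only, and 19 at the probeset with the lowest mean. The 6 below became 16 at a limit of 200 and 2 with the filter on dim probesets, which tests fewer genes. Of the other pathway genes, the count of 28 above became 12 at a limit of 200, 50 at a limit of 50 and 16 to 22 with 1 sample left out, and the 20 below became 39, 10 and, with the filter on dim probesets, 10. The mean minus the limit turned negative at a limit of 200 for Jak2 (-0.20), Usp18 (-0.71), Irf1 (-0.28), Irf3 (-0.71), Irf9 (-0.37), Eif2ak2 (-0.72), Oasl1 (-0.81), Isg20 (-0.65), Ifit1 (-0.23) and Mx2 (-0.86). At a limit of 50 it turned positive for Tyk2 (0.78), Socs1 (0.65), Irf8 (0.81), Oas2 (0.95) and Ifi35 (0.82). With 1 sample left out it ran from -0.40 to 0.0 for Tyk2, from -0.28 to 0.16 for Oas2, from -0.03 to 0.24 for Mx2 and from -0.32 to 0.10 for Ifi35, so these 4 lay on either side of the limit. The 9 interferon genes at least 1 higher in replicate 1 than in replicate 3 became 8 after quantile normalization or a shift of the columns. So did the 9 counted for replicate 2 over replicate 3. The median of replicate 1 minus 3 over the other pathway genes, 0.01, became -0.02 with shifted columns, that of replicate 2 minus 3, 0.02, became -0.01 after quantile normalization and -0.02 with shifted columns, and the 1 such gene with replicate 1 over replicate 2 became 0 at the probeset with the lowest mean. The cause of these changes was not tested. No paired analysis was possible because the samples form 1 group. With 3 arrays, lower interferon genes in replicate 3 and equal values in many probesets, calls close to the limit are uncertain.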

Other observations

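Among 11 measured sensors of nucleic acids and their adaptors outside the 47 genes, 1 was above a signal of 100 by limma, 6 were below and 4 were neither, against 22.9% above and 65.0% below over all genes. The gene above was Tbk1, the kinase that activates IRF3, at a log2 signal equal in all samples, 7.62 (adjusted p = 1.68e-06 from limma). Cgas, the cytosolic DNA sensor, was below at 4.72 throughout, as were Ikbke, Tlr7, Tlr9, Myd88 and Ticam1, which carry or start Toll-like receptor signals. Tlr3, the endosomal sensor of double-stranded RNA, had 7.64 in replicate 1, 7.44 in replicate 2 and only 6.39 in replicate 3, and was neither. Sting1, the adaptor of cGAS, ran the other way, with 6.17 in replicate 1, 6.80 in replicate 2 and 6.97 in replicate 3. Aim2, an inflammasome sensor of DNA, was likewise highest in replicate 3, at 7.43, against 6.72 in replicate 1 and 6.32 in replicate 2. The lower signal of replicate 3 was thus not shared by these sensors as a group, and the difference between the groups of genes was not tested.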
